A study of Homo sapiens with 6 samples.

Results

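The knockdown of SHC1 in MDA-MB-231 cells was described from 4 of the 6 libraries of the series, which were siSHC1 at 24 h, siSHC1 at 48 h, siControl at 24 h and siControl at 48 h after transfection. MDA-MB-231 is a widely used human cell line from a triple-negative breast cancer, a disease without oestrogen receptor, progesterone receptor or amplified HER2. The siSHC1 cells had received an siRNA against SHC1 and the siControl cells a control siRNA. The remaining 2 libraries, siNCOA3 at 24 h and 48 h, had received an siRNA against the coactivator NCOA3. All 6 libraries thus came from transfected cells, and an untransfected sample was not analysed here. Neither the siRNA sequences nor their number per target could be read from the labels.

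SHC1 encodes an adaptor protein. After a growth factor binds its receptor tyrosine kinase, the SHC1 protein docks on the receptor, is phosphorylated and recruits GRB2 and SOS, which load RAS with GTP and start the ERK cascade. In breast epithelium the pathway is best known downstream of the EGF receptor family, and SHC1 also couples integrins to ERK.

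The values were FPKM (fragments per kilobase of transcript, scaled to the size of the library) for 20111 genes, of which 11699 had at least 1 FPKM in at least 2 libraries and were tested. Total FPKM was 553073 and 553027 in siSHC1 libraries at 24 h and 48 h, against 495518 and 538699 in siControl libraries. The depth estimated from the lowest values, relative to siControl at 24 h, was 1.03 and 1.01 in siSHC1 libraries and 1.45 in siControl at 48 h. Of the markers of the line, VIM had 942 and 950 FPKM in siSHC1 libraries and 887 and 932 FPKM in siControl libraries, and CD44 had at least 473 FPKM in each. PGR was listed at 0 in all 4, ESR1 had at most 0.0922 FPKM, and the mesenchymal marker SPARC had at most 0.509 FPKM. Of the markers of other cell types, DCN and CDH5 were listed at 0 in all 4 libraries and PTPRC had at most 0.0549 FPKM.

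Each siRNA had 1 library at each time, so that the 2 times act as the replicates of an siRNA. No label tells of separate cultures, so the p-values cover the scatter of these libraries alone, and that scatter may be technical. A gene was called when limma, fitted to all 6 libraries with siRNA and time as terms, gave an adjusted p under 0.05. Fold changes are log2 differences of scaled FPKM + 1, siSHC1 minus siControl, with a standard error (SE), and they understate the change of low genes. In such bulk libraries, fewer cells with a transcript and less of it per cell cannot be told apart.

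The target was low at both times. SHC1 had 14.7 and 15.5 FPKM in siSHC1 libraries at 24 h and 48 h, against 103 and 119 FPKM in siControl libraries. These were 13.4% and 13.3% of the siControl level of the same time after scaling, and the siSHC1 and siControl libraries did not overlap. The fitted change was −2.83 ± 0.08 (SE; limma adjusted p = 4.95e-05), and against siNCOA3, where SHC1 had 109 and 107 FPKM, it was −2.74 ± 0.08 (adjusted p = 6.09e-05, in a comparison where 9.75% of tested genes were called).

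Of the 23 tested SHC adaptors and partners near the receptor, SHC1 fell and 1 other gene, IRS1, rose. IRS1, the adaptor of the insulin and IGF1 receptors, had 21.6 and 24.6 FPKM in siSHC1 libraries against 15.5 and 18.3 FPKM in siControl libraries (0.40 ± 0.09, adjusted p = 0.0479). Its libraries did not overlap, but the call was lost whichever of the 6 libraries was left out (adjusted p 0.0568 to 0.245). SHC3, a paralogue of SHC1, had 4.68 and 5.24 FPKM in siSHC1 libraries and 6.27 and 6.82 FPKM in siControl libraries and was not called (−0.37 ± 0.11, adjusted p = 0.0973). The scaffold GAB2 had 1.11 and 1.17 FPKM in siSHC1 libraries and 1.91 and 2.33 FPKM in siControl libraries (−0.56 ± 0.14, adjusted p = 0.0609). GRB2, the partner that binds phosphorylated SHC1, stood at 0.20 ± 0.09 (adjusted p = 0.205). Apart from SHC1 itself, no fall was called in the list.

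Across the transcriptome 757 genes were called, or 6.47% of those tested. Of these, 365 rose (3.12%) and 392 fell (3.35%), and 78 had a fitted change of 2-fold or more, 35 upward and 43 downward. Under equal library totals the split turned to 211 rises and 501 falls, and with no scaling to 351 rises and 283 falls, so that both numbers depend on the scaling. The called rises had a median log2 change of 0.53 at 24 h and 0.58 at 48 h, and the falls −0.64 and −0.61. The number called was 60 without siControl at 24 h, 110 without siControl at 48 h, 431 without siSHC1 at 24 h and 245 without siSHC1 at 48 h. Of 107 called genes that are in the lists or among the largest changes, 25 kept the call whichever of the 6 libraries was left out, and the others lost it without at least 1 of them. Non-overlap alone, with both siSHC1 libraries above or below both siControl libraries, was met by 2824 genes above (24.1%) and 2792 below (23.9%).

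At the single times, which have no replicate and hence no test, 141 genes differed 2-fold or more at 24 h (1.21%), 58 higher and 83 lower in siSHC1. At 48 h there were 154 (1.32%), 83 higher and 71 lower. At both times in the same direction were 58 genes (0.496%), 24 higher and 34 lower, of which 52 were also called. Of the genes 2-fold higher at 24 h, 41.4% were so at 48 h, and of those at 48 h, 28.9% were so at 24 h. For the lower genes these shares were 41.0% and 47.9%. In 6 genes the change was 2-fold or more at both times but in opposite directions.

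**Figure D1:**
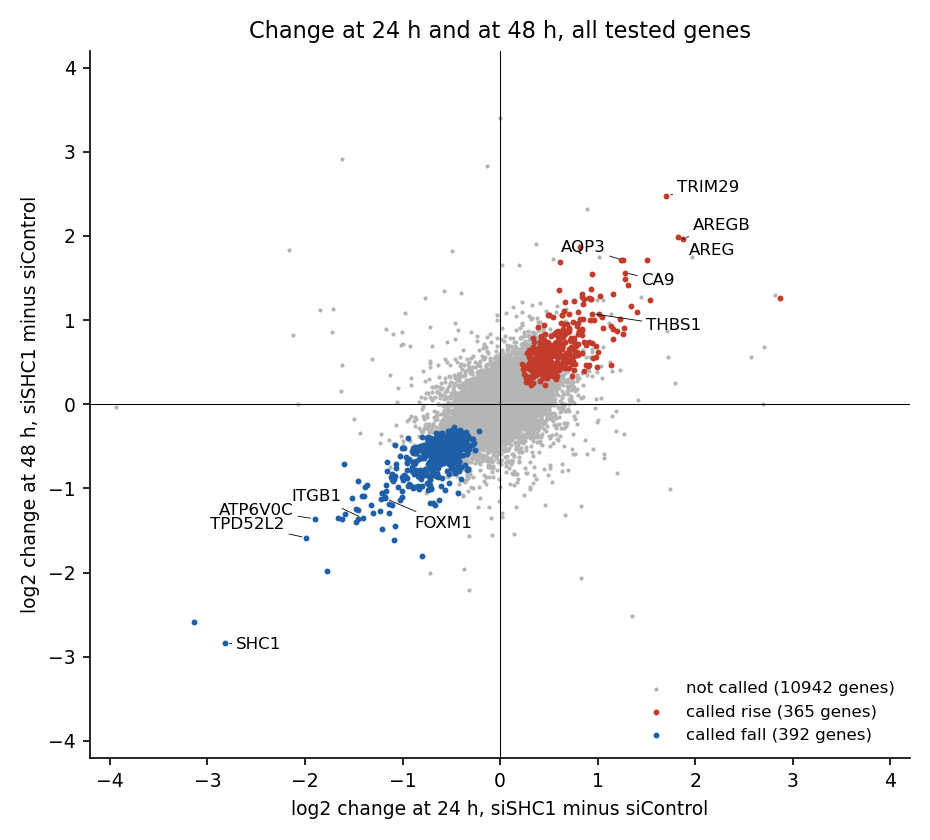
Log2 change of scaled FPKM + 1, siSHC1 minus siControl, at 24 h (x axis) and 48 h (y axis), with 1 point per tested gene. The 365 called rises (red) lie in the upper right, with TRIM29, AREG and AREGB farthest out among the labelled genes, and the 392 called falls (blue) lie in the lower left, where SHC1 is at −2.82 and −2.84.

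The largest falls after SHC1 itself were found in genes of unlike function. TPD52L2, a member of the tumour protein D52 family, had 22.2 and 28.6 FPKM in siSHC1 libraries against 85.1 and 89.6 FPKM in siControl libraries (−1.79 ± 0.11, adjusted p = 0.00188). ATP6V0C, the membrane-rotor subunit of the vacuolar proton pump, had 31.4 and 47.7 FPKM in siSHC1 libraries against 112 and 126 FPKM in siControl libraries (−1.63 ± 0.14, adjusted p = 0.00438). In both genes each siSHC1 library was far below each siControl library, with the lower level at 24 h. SRPR, the receptor subunit that brings ribosomes to the endoplasmic reticulum, had 18.9 and 22.3 FPKM in siSHC1 libraries against 57.8 and 59.5 FPKM in siControl libraries (−1.50 ± 0.10, adjusted p = 0.00188). ADI1, an enzyme of methionine salvage, had 16.4 and 19.8 FPKM in siSHC1 libraries against 49.1 and 53.5 FPKM in siControl libraries (−1.50 ± 0.10). SH3GLB1, a membrane-bending protein also placed in the autophagy list, had 18.6 and 23.2 FPKM in siSHC1 libraries against 54.2 and 59.7 FPKM in siControl libraries (−1.45 ± 0.10). None of these libraries overlapped between the siRNAs. All but ATP6V0C kept the call with each library left out, and ATP6V0C missed it without siControl at 24 h (adjusted p = 0.0599).

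The rest of the 15 largest falls were SPAG7, TMEM164, ITGB1, MELK, FBXO27, MORF4L1, PARP3, SLC7A5 and STMN3. MELK, a kinase of the mitotic programme, had 18.1 and 17.7 FPKM in siSHC1 libraries against 43.1 and 45.6 FPKM in siControl libraries (−1.29 ± 0.09). MORF4L1, a chromodomain subunit of histone acetyltransferase complexes, had 53.4 and 58.5 FPKM in siSHC1 libraries against 141 and 142 FPKM in siControl libraries (−1.36 ± 0.08). In both the levels at 24 h and 48 h nearly coincided. SPAG7, TMEM164, FBXO27, PARP3 and STMN3 were lower genes, with 2.60 to 9.53 FPKM in siSHC1 libraries and 7.73 to 25.6 FPKM in siControl libraries. PARP3, an ADP-ribosyltransferase of the PARP family, lost the call without siControl at 24 h (fitted change −1.41) or at 48 h (−1.09). The other 4 kept it throughout. Below the limit of 5 FPKM on the mean of the 4 libraries that the largest falls had to pass, and picked after its values were seen, LSP1 was listed at 0 in both siSHC1 libraries and also in both siNCOA3 libraries, against 7.37 and 5.08 FPKM in siControl libraries.

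Transcripts of the falling genes were searched for a shared 7-base word. Small RNAs loaded on Argonaute, siRNA strands included, can lower transcripts that pair with bases 2 to 8 of the strand, mostly in the 3′ untranslated region (UTR). Of 13974 words found in the 3′ UTR of at least 200 tested genes each, GCCCATC went with the lowest median change. It was first at 24 h and at 48 h taken alone, and held place 4925 for siNCOA3 against siControl. The search used these same fold changes, of which the changes at 24 h and 48 h are the parts. The rank of the word, and its shares by call, site number and UTR length below, are therefore descriptions and no test. Sites in the genes whose falls are described here are shown, read from GENCODE transcripts of GRCh38 on the transcript's own strand, with the word in capitals. The first 2 are in the coding sequence of SHC1 and the rest in 3′ UTRs.
SHC1, exon 12 of 12, chr1:154963856-154963876, minus strand: tggacaatcacttGCCCATCa
SHC1, exon 1 of 12, chr1:154970391-154970411, minus strand: cttcatccctgggGCCCATCc
TPD52L2, exon 9 of 9, chr20:63890056-63890076, plus strand: tgaggacagtcctGCCCATCc
ATP6V0C, exon 3 of 3, chr16:2519867-2519887, plus strand: gcagtgtcctagtGCCCATCg
ADI1, exon 4 of 4, chr2:3498649-3498669, minus strand: cagttccttagatGCCCATCt
SH3GLB1, exon 9 of 9, chr1:86743245-86743265, plus strand: ctatggaaaggttGCCCATCa
ITGB1, exon 16 of 16, chr10:32900506-32900526, minus strand: caccatttgagttGCCCATCt
SLC7A5, exon 10 of 10, chr16:87832861-87832881, minus strand: ccacagctcagctGCCCATCc
MCL1, exon 4 of 4, chr1:150575253-150575273, minus strand: aactgccctgcctGCCCATCt
ZYX, exon 10 of 10, chr7:143390869-143390889, plus strand: gggtctggtcctcGCCCATCc
PKM, exon 11 of 11, chr15:72199443-72199463, minus strand: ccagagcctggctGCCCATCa

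The exon 12 site of SHC1 is in 5 of its 5 annotated coding transcripts and the exon 1 site in 2 of 5. Outside SHC1 the sites shared little beyond the word. The unbroken run around and including the word that equals the nearer-matching SHC1 site, over the 21 bases, was 10 in SH3GLB1 and 9 in ITGB1 and the PKM site shown. It was 8 in TPD52L2, ATP6V0C, ADI1, SLC7A5, MCL1 and ZYX. Whether the word belongs to the siRNA was not tested, since the siRNA sequence was not at hand.

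The word was in the 3′ UTR of 1001 of the 11364 tested genes with one (8.81%). With SHC1 left out, it was in 162 of 388 called falls (41.8%), in 20 of 355 called rises (5.63%) and in 819 of 10620 uncalled genes (7.71%). Of the 41 called falls of 2-fold or more it was in 31 (75.6%). Of the 14 largest falls other than SHC1 it was in 13, SRPR being the exception, and of the 14 largest rises with an annotated 3′ UTR it was in 0. The falls with the word had a median change of −0.70 and the 226 without it −0.58, and 82 of those without it had it in the coding sequence.

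The share of genes that fell went up with the number of sites. Of the 10362 genes with 0 sites in the 3′ UTR 2.18% fell, with 1 site 15.4% of 889 fell and with 2 sites 22.1% of 95 fell. The median changes were 0.01, −0.12 and −0.18. The 17 genes with 3 or more sites had a median of −0.05, and 23.5% of them fell. A full word followed by A went with 19.0% falls and another full word with 15.1%. The last 6 bases of the word (the 6-base core) without a full word went with 2.90%, and no such core with 1.88%. Where the word was in the coding sequence but not in the 3′ UTR, 5.69% of 1441 genes fell, with a median of −0.06, and where it was in no region, 1.60% of 8788 fell.

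Genes with the word have longer 3′ UTRs, with a median of 2863 bases against 1248 bases in genes without it. Within 4 bins of equal size by 3′ UTR length, from short to long, 28.3%, 27.1%, 17.0% and 11.4% of genes with the word fell, against 1.62%, 2.63%, 2.02% and 2.51% of those without. In the siNCOA3 libraries the genes with the word had a median change of −0.01 against siControl. The largest falls without the word in their 3′ UTR, picked after their values were seen and above the same limit on the mean, included SRPR, FOXM1, OGFR, ATN1 and HIBADH. OGFR, the opioid growth factor receptor, had 23.6 and 28.6 FPKM in siSHC1 libraries against 65.1 and 64.4 FPKM in siControl libraries (−1.32 ± 0.11, adjusted p = 0.00328).

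**Figure D2:**
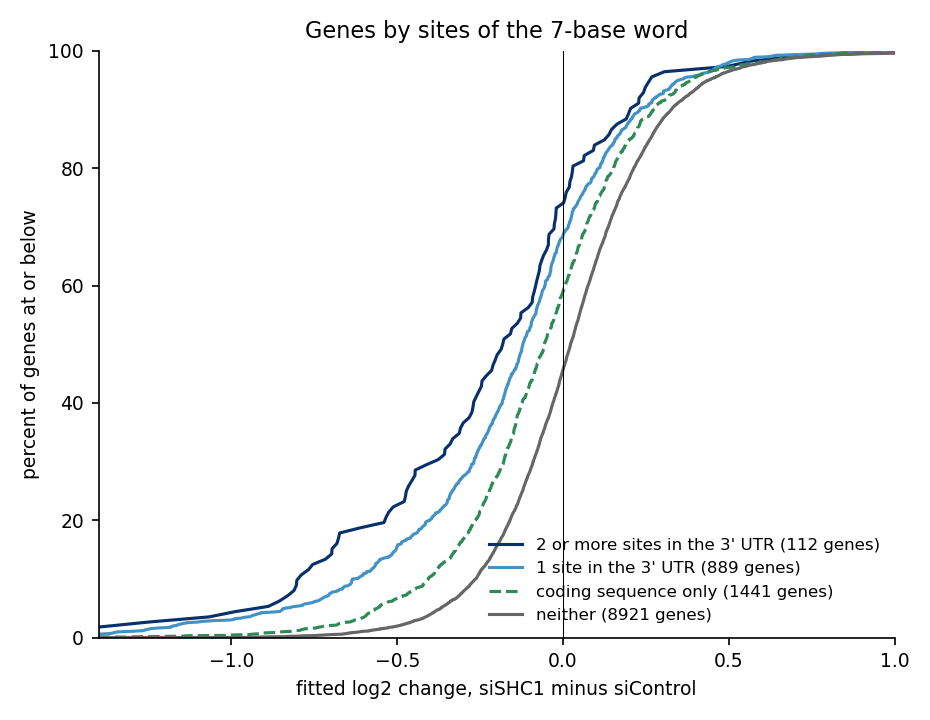
Percent of genes (y axis) at or below each fitted log2 change, siSHC1 minus siControl (x axis), by sites of GCCCATC in the transcript, with SHC1 left out. The curves for 2 or more sites and for 1 site in the 3′ UTR (889 genes) lie left of the curve for the coding sequence only (1441 genes) over most of the range, and that curve lies left of the one for genes with the word in neither.

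Ligands of the EGF receptor were among the largest rises. AREG, amphiregulin, had 93.0 and 134 FPKM in siSHC1 libraries against 23.8 and 33.5 FPKM in siControl libraries. Both siSHC1 libraries stood far above both siControl libraries, and the fitted change was 1.91 ± 0.13 (adjusted p = 0.00188). Against siNCOA3, where AREG had 26.6 and 26.4 FPKM, it was 2.05 ± 0.13 (adjusted p = 9.43e-04). AREGB, a second entry of nearly the same sequence whose reads cannot be told apart with certainty from those of AREG, had 78.0 and 112 FPKM in siSHC1 libraries against 19.3 and 28.3 FPKM in siControl libraries. EREG, epiregulin, had 9.06 and 10.3 FPKM in siSHC1 libraries against 3.33 and 4.99 FPKM in siControl libraries (1.04 ± 0.13, adjusted p = 0.0105), with no overlap. HBEGF, a membrane-anchored ligand named after its values were seen, had 45.5 and 42.8 FPKM in siSHC1 libraries against 30.1 and 25.8 FPKM in siControl libraries (0.61 ± 0.11, adjusted p = 0.0295). Thus 4 of 7 tested ligand entries rose, and the other 3 were not called. These were TGFA (0.14 ± 0.08), NRG1 (0.02 ± 0.22) and BTC (−0.07 ± 0.18).

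The receptor itself fell. EGFR had 32.9 and 28.7 FPKM in siSHC1 libraries against 48.9 and 44.4 FPKM in siControl libraries, without overlap (−0.62 ± 0.09, adjusted p = 0.0163). ERBB2 was not called (−0.14 ± 0.09), nor was ERBB3 (0.29 ± 0.24), which had 1.10 and 2.53 FPKM in siSHC1 libraries and 1.38 and 1.03 FPKM in siControl libraries. ERRFI1, a feedback inhibitor of EGFR, had 152 and 194 FPKM in siSHC1 libraries against 104 and 140 FPKM in siControl libraries (0.47 ± 0.09, adjusted p = 0.0348). ADAM10, a sheddase of these ligands, was not called (0.39 ± 0.12, adjusted p = 0.0963). In the whole list of 14 tested entries 5 rose and 1 fell, with a median of 0.21 against 0.00 over all tested genes. Without siControl at 24 h there were 2 rises (AREG and AREGB) and 0 falls, without siControl at 48 h 3 and 0, without siSHC1 at 24 h 4 and 1, and without siSHC1 at 48 h 3 and 0.

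Calls in the cascades below SHC1 were no more frequent than over all tested genes, of which 3.12% rose and 3.35% fell. Their small number is therefore not particular to these cascades. Among 36 genes of the ERK cascade, its immediate early targets and its feedback inhibitors, 1 rose (2.78%) and 0 fell. In that list 9 genes had an unadjusted p under 0.05. IER3, an immediate early gene, had 464 and 457 FPKM in siSHC1 libraries against 315 and 397 FPKM in siControl libraries (0.34 ± 0.07, adjusted p = 0.0438), and lost the call without any one of the 4 siSHC1 and siControl libraries (adjusted p 0.0603 to 0.272). FOS had 1.80 and 0.798 FPKM in siSHC1 libraries and 2.48 and 2.86 FPKM in siControl libraries, and was not called (−0.73 ± 0.23, adjusted p = 0.105). EGR1 had 1.73 and 1.37 FPKM in siSHC1 libraries and 2.38 and 2.93 FPKM in siControl libraries (−0.54 ± 0.18, adjusted p = 0.112). Both immediate early transcripts were at low levels here, where a fold is understated. Among 26 genes of PI3K, AKT and mTOR signalling limma called 0, with 6 at an unadjusted p under 0.05. Over all 11699 tested genes 3078 were under that p. The largest change was that of DDIT4, an inhibitor of mTOR complex 1 (0.75 ± 0.18, adjusted p = 0.0685).

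**Figure D3:**
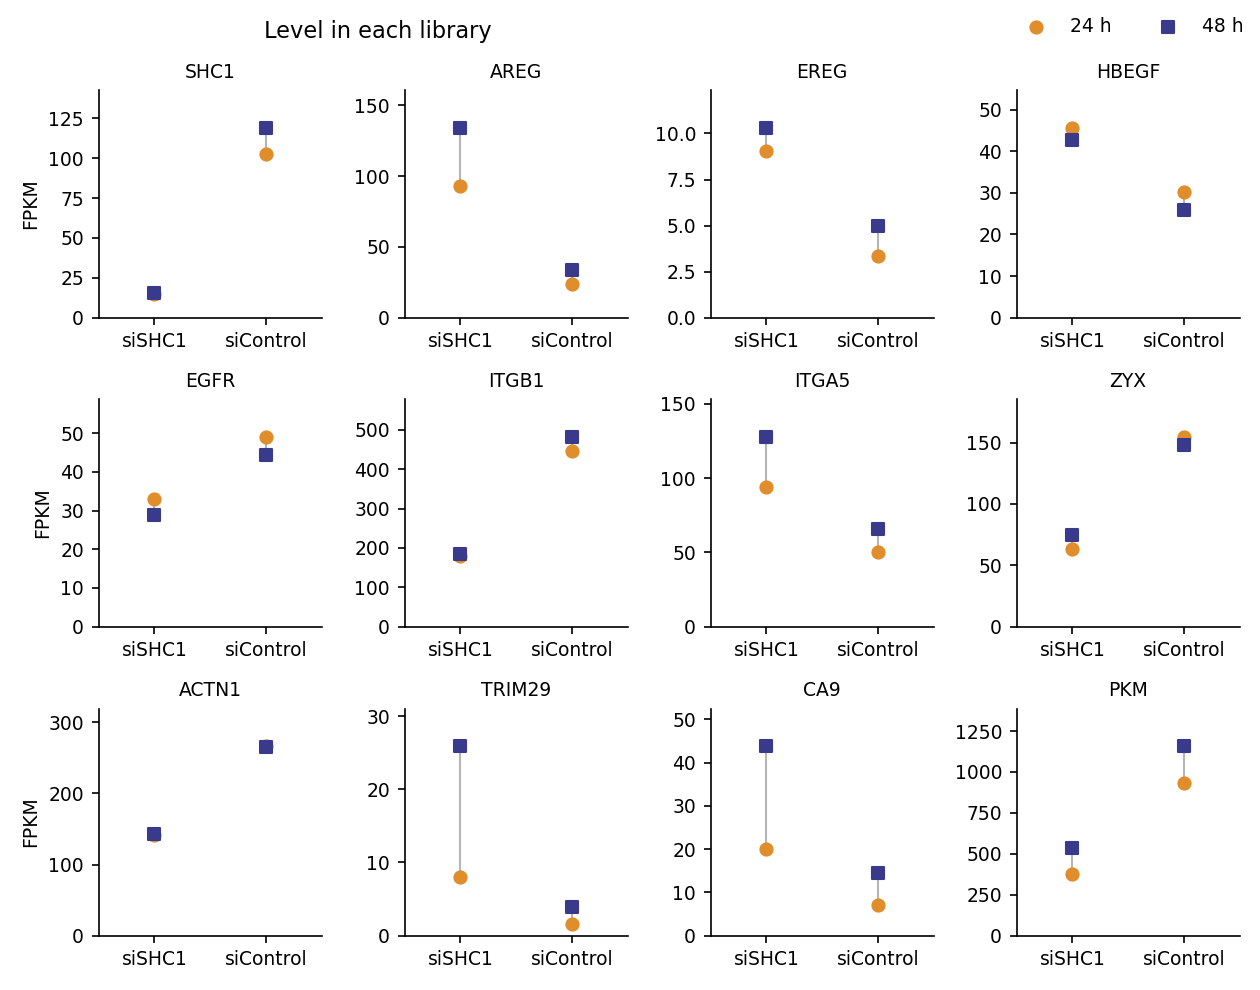
FPKM (y axis, from 0) of 12 genes in each library, with siSHC1 left and siControl right, circles for 24 h and squares for 48 h, and a grey line joining the libraries of an siRNA. In each panel the siSHC1 libraries lie wholly above (AREG, EREG, HBEGF, ITGA5, TRIM29, CA9) or wholly below the siControl libraries.

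ITGB1, the beta subunit shared by most matrix-binding integrins, was among the most abundant of the falls. It had 179 and 184 FPKM in siSHC1 libraries against 445 and 481 FPKM in siControl libraries, which is 37.5% and 39.1% of siControl after scaling. The libraries were far apart and the 2 times nearly alike (−1.38 ± 0.06, adjusted p = 5.39e-04). Against siNCOA3, with 481 and 473 FPKM, the change was −1.38 ± 0.06 (adjusted p = 3.59e-04). Its partner ITGA5, the alpha subunit of the fibronectin receptor, had 93.9 and 127 FPKM in siSHC1 libraries against 50.2 and 65.9 FPKM in siControl libraries (0.88 ± 0.10, adjusted p = 0.00844). The ITGA5 libraries did not overlap, and the other 9 tested integrins were not called. ITGB4, the hemidesmosome subunit, had the largest change of these (0.36 ± 0.10, adjusted p = 0.0766).

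Several adaptors of focal adhesions fell with ITGB1. ZYX, zyxin, had 63.3 and 74.4 FPKM in siSHC1 libraries against 154 and 148 FPKM in siControl libraries (−1.16 ± 0.10, adjusted p = 0.00387). ACTN1, an actin crosslinker, had 141 and 143 FPKM in siSHC1 libraries against 266 in both siControl libraries (−0.93 ± 0.07, adjusted p = 0.00194). Neither gene overlapped between the siRNAs, and ITGB1, ZYX, ACTN1 and PXN (paxillin, −0.79 ± 0.07) kept the call with each library left out. PARVA also fell (−0.42 ± 0.10, adjusted p = 0.04995), and lost the call without any one of the 6 libraries (adjusted p 0.0568 to 0.252). In all, 2 of 30 tested genes of integrins and focal adhesions rose and 5 fell, and 4 of the 5 falls had the word GCCCATC in their 3′ UTR, while PXN had it in the coding sequence. The part of the word in these falls was not tested. Without siControl at 24 h or at 48 h there were 0 rises and 4 falls.

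In the extracellular matrix 5 of 30 tested genes rose and 1 fell. THBS1, thrombospondin 1, had 560 and 447 FPKM in siSHC1 libraries against 272 and 215 FPKM in siControl libraries (1.01 ± 0.14, adjusted p = 0.0195). COL1A1, a chain of type I collagen, had 6.78 and 7.47 FPKM in siSHC1 libraries against 2.16 and 3.27 FPKM in siControl libraries (1.12 ± 0.12, adjusted p = 0.00768). COL5A1, a chain of type V collagen, had 118 and 137 FPKM in siSHC1 libraries against 66.5 and 82.5 FPKM in siControl libraries (0.74 ± 0.09). All 3 stood above siControl without overlap, and the laminin chains LAMA5 (0.53 ± 0.11) and LAMB3 (0.44 ± 0.08) rose too. MMP14, a membrane-bound matrix protease, had 154 and 139 FPKM in siSHC1 libraries against 190 and 237 FPKM in siControl libraries (−0.57 ± 0.09, adjusted p = 0.0229). THBS1 lost the call without any one of the siSHC1 and siControl libraries (adjusted p 0.0608 to 0.118). The rises of the list numbered 0 without siControl at 24 h, 1 without siControl at 48 h, 3 without siSHC1 at 24 h and 2 without siSHC1 at 48 h. The falls numbered 0, 0, 1 and 0 in the same order. Among 30 genes of the actin cytoskeleton and its small GTPases, 1 rose and 1 fell. RHOB had 20.0 and 18.4 FPKM in siSHC1 libraries against 9.39 and 8.89 FPKM in siControl libraries (0.96 ± 0.10), and CDC42, with the word in its 3′ UTR, fell (−0.58 ± 0.07).

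The list with the highest share of rises was that of hypoxia and glycolysis. Cells sense oxygen through the EGLN hydroxylases, which mark the alpha subunits of the HIF factors for destruction, and HIF targets include the glycolytic enzymes and CA9. Of 43 tested members 18 rose (41.9%, against 3.12% of all tested genes) and 2 fell, and 38 had a fitted change above 0. The median was 0.40, with 0.36 at 24 h and 0.43 at 48 h. By role, 6 of 16 glycolytic enzymes rose and 2 fell, 4 of 7 transporters and regulators rose, 7 of 13 other targets rose and 1 of 7 factors and sensors rose.

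CA9, a carbonic anhydrase at the cell surface, had 20.1 and 43.8 FPKM in siSHC1 libraries against 7.19 and 14.4 FPKM in siControl libraries (1.42 ± 0.23, adjusted p = 0.0278). ENO2, an enolase, had 125 and 163 FPKM in siSHC1 libraries against 61.0 and 69.1 FPKM in siControl libraries (1.09 ± 0.13, adjusted p = 0.011). EGLN3, an oxygen sensor that is itself a HIF target, had 25.2 and 40.6 FPKM in siSHC1 libraries against 11.1 and 19.2 FPKM in siControl libraries (1.04 ± 0.20, adjusted p = 0.037). In all 3 the siSHC1 libraries lay above the siControl libraries, and 48 h lay above 24 h within each siRNA. Further rises were those of PFKFB4 (0.97 ± 0.15) and PFKFB3 (0.80 ± 0.12), which make the activator of phosphofructokinase, and SLC2A3, a glucose transporter (0.83 ± 0.09). The collagen prolyl hydroxylase subunits P4HA2 (0.86 ± 0.10) and P4HA1 (0.80 ± 0.12) rose as well. Smaller rises were found for the abundant ALDOA (0.41 ± 0.07), GAPDH (0.40 ± 0.07) and LDHA (0.39 ± 0.07).

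The members that fell were enzymes. PKM, pyruvate kinase, had 374 and 534 FPKM in siSHC1 libraries against 934 and 1156 FPKM in siControl libraries, far apart at both times (−1.25 ± 0.11, adjusted p = 0.00451). HK1, a hexokinase, had 41.2 and 47.8 FPKM in siSHC1 libraries against 65.6 and 74.4 FPKM in siControl libraries (−0.68 ± 0.09, adjusted p = 0.0123). Both had the word GCCCATC in their 3′ UTR. ANGPTL4, with 32.0 and 14.8 FPKM in siSHC1 libraries and 14.3 and 3.78 FPKM in siControl libraries, and ALDOC, with 10.6 and 25.9 FPKM and 4.28 and 10.5 FPKM in the same libraries, had large changes that were not called (adjusted p 0.0966 and 0.0637). HIF1A (−0.21 ± 0.08), SLC2A1 (0.26 ± 0.07) and VEGFA (0.18 ± 0.08) were not called either.

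Values that moved with these rises stand beside them. All 18 rising members were also higher at 48 h than at 24 h after siControl, and 16 were so after siSHC1. Over all tested genes 67.6% and 49.1% were higher at 48 h. These counts compare FPKM before scaling. The scaling factors were 0.946 at 24 h and 1.016 at 48 h for siControl, and 1.012 and 0.998 for siSHC1. A gene unchanged after scaling thus reads higher at 48 h after siControl, and slightly lower after siSHC1. Of all 365 called rises, 317 were higher at 48 h after siControl, so this is common among the rises. The part of time in culture in the difference between the siRNAs was not tested. The number of rises fell to 0 without siControl at 24 h, and was 4 without siControl at 48 h, 9 without siSHC1 at 24 h and 5 without siSHC1 at 48 h, while the median stayed between 0.35 and 0.44. Both falls were lost without siControl at 24 h, where PKM had an adjusted p of 0.0622. CA9 lost the call without siControl at 24 h (adjusted p = 0.20) or 48 h (0.157) and without siSHC1 at 48 h (0.114). ENO2 lost it without siControl at 24 h (0.0992) or 48 h (0.0966). EGLN3 lost it without any one of the 4 libraries (0.0729 to 0.216). Under equal library totals 14 members rose.

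**Figure D4:**
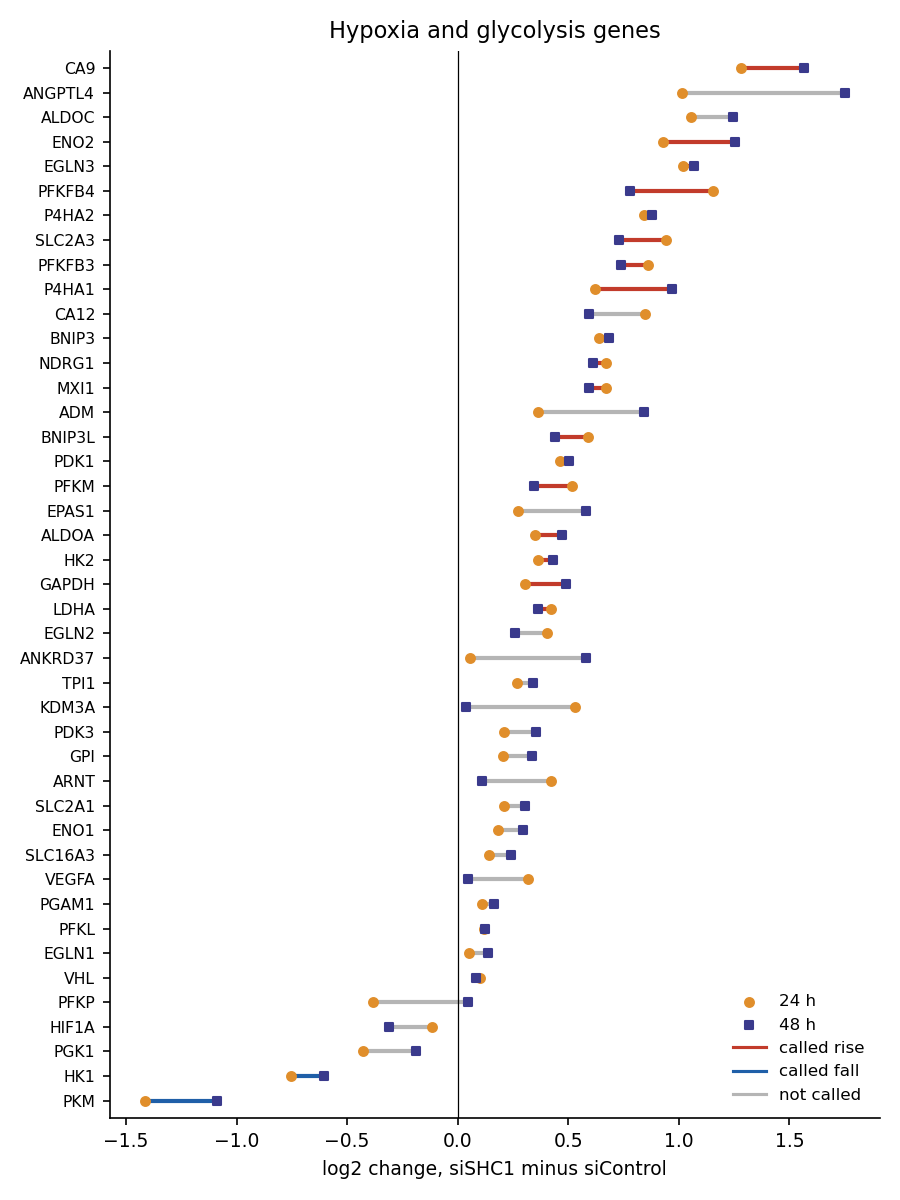
Log2 change of scaled FPKM + 1, siSHC1 minus siControl (x axis), of the 43 tested hypoxia and glycolysis genes, ordered by fitted change, with circles at 24 h and squares at 48 h. Red lines mark the 18 called rises, blue lines the 2 called falls (HK1 and PKM) and grey lines genes not called, and 38 genes have a fitted change above 0.

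Promoters of the rising members were searched for the core of the hypoxia response element, ACGTG, on either strand, from 250 bases before to 50 after the gene start in RefSeq sequences of GRCh38.p14. The core also lies within CACGTG, the E-box bound by other factors, where matches on the 2 strands overlap. It was in 8 of 15 rising members with a sequence (53.3%), in 8 of 21 uncalled members (38.1%) and in 2417 of 8838 tested genes (27.3%). Over all called rises it was in 29.5% and over all called falls in 24.2%. Matches in the promoters of CA9, ENO2, P4HA1 and LDHA are shown for the genes described above, with the core in capitals, as CACGT where it is on the other strand.
CA9, chr9:35673900-35673924, plus strand: gtttccaatgCACGTacagcccgta
ENO2, chr12:6914452-6914476, plus strand: ccgcgctcgtACGTGcgcctccgcc
P4HA1, chr10:73096938-73096962, minus strand: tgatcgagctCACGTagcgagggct
LDHA, chr11:18394480-18394504, plus strand: tgggttcccgCACGTccgccggccc

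Sites began 18 bases before the gene start in CA9, 118 in ENO2, 86 in P4HA1 and 73 in LDHA for the one shown. The other matches of LDHA were all within CACGTG. A match says only that these letters are in the window, and binding was not measured.

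Epithelial genes rose in 7 of 24 tested members and fell in 1. TRIM29, a gene of basal epithelium, had the largest change of the named rises, with 8.0 and 25.9 FPKM in siSHC1 libraries against 1.64 and 3.90 FPKM in siControl libraries (2.09 ± 0.18, adjusted p = 0.00378). AQP3, a water and glycerol channel, had 7.66 and 10.6 FPKM in siSHC1 libraries against 2.44 and 2.58 FPKM in siControl libraries (1.49 ± 0.14, adjusted p = 0.00474). Both were apart from siControl at each time, and both kept the call with each library left out. CLDN4, a claudin of tight junctions, had 72.6 and 92.9 FPKM in siSHC1 libraries against 43.7 and 52.9 FPKM in siControl libraries (0.73 ± 0.08, adjusted p = 0.00889). PKP3 (0.70 ± 0.13), KRT19 (0.64 ± 0.09) and KRT7 (0.49 ± 0.09) rose too, and KRT81, a hair keratin with the word in its 3′ UTR, fell (−0.85 ± 0.13).

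The median of the epithelial list was 0.33, with 21 of 24 members above 0. The rises numbered 2 without siControl at 24 h, 2 without siControl at 48 h, 9 without siSHC1 at 24 h and 3 without siSHC1 at 48 h. Among the markers of luminal breast cells the summed level of 10 genes was 769 to 915 FPKM in siSHC1 libraries and 586 to 706 FPKM in siControl libraries, and KRT19 and AGR2 (1.15 ± 0.22) were the called members. The sum of 6 claudin-low or mesenchymal markers was 1974 to 2168 FPKM in siSHC1 libraries and 1999 to 2002 FPKM in siControl libraries. Of 20 mesenchymal genes limma called 0, with 8 at an unadjusted p under 0.05, against 3078 of all 11699 tested genes. SNAI2, a repressor of epithelial genes, had 15.9 and 13.4 FPKM in siSHC1 libraries and 21.3 and 18.3 FPKM in siControl libraries (−0.44 ± 0.10, adjusted p = 0.0515), and ZEB2 stood at 0.50 ± 0.13 (adjusted p = 0.0677).

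Genes of cholesterol and fatty acid synthesis were nearly all above siControl but few were called. Of 35 tested members 33 had a fitted change above 0, 3 rose and 0 fell, with a median of 0.33, 0.27 at 24 h and 0.48 at 48 h. The rises included INSIG2, which retains SCAP in the endoplasmic reticulum (0.56 ± 0.12), and EBP, a sterol isomerase (0.50 ± 0.10). INSIG1 had 80.6 and 196 FPKM in siSHC1 libraries and 33.7 and 94.6 FPKM in siControl libraries, which overlapped because both siRNAs were higher at 48 h, and it was not called (1.10 ± 0.30, adjusted p = 0.106). MSMO1, a sterol oxidase, had 46.4 and 96.6 FPKM in siSHC1 libraries and 26.7 and 44.5 FPKM in siControl libraries (0.90 ± 0.20, adjusted p = 0.0529). In FPKM before scaling, all 35 members were higher at 48 h than at 24 h after siControl and 33 were so after siSHC1. The rises numbered 0 without siControl at 24 h, without siControl at 48 h or without siSHC1 at 48 h, and 6 without siSHC1 at 24 h.

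Of the cell cycle genes, those of G2/M and mitosis included 5 falls and 0 rises among 34 tested. FOXM1, the factor that drives many G2/M genes, had 28.2 and 30.8 FPKM in siSHC1 libraries against 60.9 and 69.2 FPKM in siControl libraries (−1.15 ± 0.08, adjusted p = 0.00188). CDC25B, a phosphatase that activates the mitotic kinase, had 21.9 and 24.7 FPKM in siSHC1 libraries against 48.6 and 53.4 FPKM in siControl libraries (−1.13 ± 0.08, adjusted p = 0.00199). Neither overlapped, and both kept the call with each library left out. PRC1, a crosslinker of the spindle midzone, had 71.8 and 61.9 FPKM in siSHC1 libraries against 111 and 119 FPKM in siControl libraries (−0.81 ± 0.11). MYBL2 (−0.67 ± 0.10) and CENPF (−0.37 ± 0.08) fell as well, but CENPF lost the call whichever of the 6 libraries was left out. The word was in the 3′ UTR of CDC25B and PRC1, whereas FOXM1, MYBL2 and CENPF had it in the coding sequence and not in the 3′ UTR. The list had a median of −0.17 with 29 of 34 below 0, and its falls numbered 2 without siControl at 24 h, 2 without siControl at 48 h, 4 without siSHC1 at 24 h and 3 without siSHC1 at 48 h.

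In G1/S and DNA replication 6 of 39 tested genes fell and 2 rose, with a median of −0.10. CDCA7 had 8.14 and 5.69 FPKM in siSHC1 libraries against 13.1 and 12.3 FPKM in siControl libraries (−0.84 ± 0.11, adjusted p = 0.014). UNG, which removes uracil from DNA, had 22.8 and 16.5 FPKM in siSHC1 libraries against 30.1 and 29.5 FPKM in siControl libraries (−0.63 ± 0.10). The siSHC1 libraries were the lower ones, and the lowest was that of 48 h. GINS4 (−0.57 ± 0.12), LIG1 (−0.55 ± 0.10), MCM6 (−0.46 ± 0.09) and TYMS (−0.40 ± 0.09) were the other falls. CCND3, cyclin D3, had 201 and 180 FPKM in siSHC1 libraries against 111 and 116 FPKM in siControl libraries (0.70 ± 0.07, adjusted p = 0.00583). CDKN1A, the inhibitor p21, had 54.5 and 71.1 FPKM in siSHC1 libraries against 41.3 and 46.1 FPKM in siControl libraries (0.47 ± 0.11, adjusted p = 0.0487), and was the 1 called gene of 20 p53 targets. The call of CDKN1A was lost without any single library other than siSHC1 at 24 h. The falls numbered 0 without siControl at 24 h or at 48 h, 4 without siSHC1 at 24 h and 1 without siSHC1 at 48 h, and ran from 3 with no scaling to 10 with equal totals.

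MCL1, an inhibitor of mitochondrial apoptosis, had 42.1 and 40.2 FPKM in siSHC1 libraries against 89.5 and 84.9 FPKM in siControl libraries, with no overlap (−1.10 ± 0.09, adjusted p = 0.00246). PMAIP1, the BH3-only protein NOXA that binds MCL1, had 65.3 and 75.1 FPKM in siSHC1 libraries against 45.3 and 43.2 FPKM in siControl libraries (0.62 ± 0.11, adjusted p = 0.0293). With CASP2 (−0.61 ± 0.13), which carries the word as MCL1 does, 2 of 27 apoptosis genes fell and 1 rose. Of these 3, MCL1 alone kept the call with each library left out. In autophagy 3 of 28 fell, namely SH3GLB1, the cargo receptor NBR1 (−0.85 ± 0.09) and ATG5 (−0.46 ± 0.10), and ATG9A rose (0.51 ± 0.11). Of these, ATG5 lost the call whichever of the 6 libraries was left out. ATG9A lost it without siControl at 24 h or 48 h or siSHC1 at 48 h, and NBR1 without siControl at 24 h. In the lysosome and proton pump list 1 of 37 fell, ATP6V0C. The pump subunits ATP6V1E1 (0.58 ± 0.08) and ATP6V1F (0.36 ± 0.08) and the protease CTSD (0.30 ± 0.06) rose, CTSD with overlapping libraries. Here ATP6V1F lost the call whichever of the 6 libraries was left out. CTSD lost it without any one of the 4 siSHC1 and siControl libraries, and ATP6V1E1 without siControl at 24 h or 48 h or siSHC1 at 48 h.

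Among 33 genes of ATF4 and the unfolded protein response 2 fell and 1 rose. SLC7A5 and SLC3A2 encode the light and heavy chains of a transporter of large neutral amino acids. SLC7A5 had 56.1 and 48.3 FPKM in siSHC1 libraries against 133 and 114 FPKM in siControl libraries (−1.26 ± 0.09, adjusted p = 0.00202). SLC3A2 had 101 and 70.6 FPKM in siSHC1 libraries against 147 and 130 FPKM in siControl libraries (−0.74 ± 0.13, adjusted p = 0.0262), and lacks the word in its 3′ UTR. Both chains were lower in each siSHC1 library, and SLC3A2 lost the call without siControl at 24 h (adjusted p = 0.171) or 48 h (0.139) or without siSHC1 at 48 h (0.0827). CALR, a chaperone, rose (0.41 ± 0.08). Of 26 genes of translocation and glycosylation in the endoplasmic reticulum SRPR fell and SSR2 rose (0.33 ± 0.07). The call of CALR was lost without siControl at 24 h or 48 h or siSHC1 at 48 h. That of SSR2 was lost without any one of the 4 siSHC1 and siControl libraries.

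Of 23 NF-kB and inflammatory genes 3 fell and 0 rose. The median of the list was −0.16, and for siNCOA3 against siControl it was −0.23, so a lower list median was not particular to siSHC1. CXCL1, a neutrophil chemokine, had 0.639 and 0.729 FPKM in siSHC1 libraries against 1.74 and 5.14 FPKM in siControl libraries (−1.30 ± 0.23, adjusted p = 0.0298). IL8 had 1.85 and 2.96 FPKM in siSHC1 libraries against 2.67 and 7.34 FPKM in siControl libraries, which overlapped (−0.74 ± 0.17, adjusted p = 0.049). Both chemokines were highest in siControl at 48 h, the library with the highest relative depth estimated from low values, and without it CXCL1 (adjusted p = 0.149) and IL8 (0.249) were not called. Both also lost the call without siControl at 24 h (0.0599 and 0.083) or siSHC1 at 48 h (0.0859 and 0.244). NFKB1, the p105 subunit, had 15.4 and 14.3 FPKM in siSHC1 libraries against 21.4 and 22.9 FPKM in siControl libraries (−0.58 ± 0.09). The falls numbered 0 without siControl at 24 h, siControl at 48 h or siSHC1 at 48 h. Of 30 interferon response genes limma called 0, and the median was 0.18. In this list 11 were at an unadjusted p under 0.05, against 3078 of all 11699 tested genes. The largest changes were those of IFIT2, an interferon-induced inhibitor of translation (0.70 ± 0.20, adjusted p = 0.0897), and ISG15, a ubiquitin-like modifier, which stood at 0.55 ± 0.13 (adjusted p = 0.064).

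In the other lists at most 1 gene was called. Of 16 genes of the RNA interference machinery limma called 0, and the 1 gene at an unadjusted p under 0.05 was DROSHA (−0.47 ± 0.11, adjusted p = 0.0526). Of 39 cytosolic ribosomal proteins 1 fell, RPS16, with 546 and 502 FPKM in siSHC1 libraries against 818 and 850 FPKM in siControl libraries (−0.71 ± 0.06), and it carries the word in its 3′ UTR. Of 44 genes of oxidative phosphorylation COX7A2 rose (0.29 ± 0.06). Of 22 NRF2 targets GPX4 rose (0.35 ± 0.08), and of 19 YAP and TEAD targets and factors F3, tissue factor, rose (0.94 ± 0.14). The calls of COX7A2 and GPX4 were lost without any one of the 4 siSHC1 and siControl libraries, and that of F3 without siSHC1 at 24 h or 48 h. F3 had 312 and 313 FPKM in siSHC1 libraries against 184 and 137 FPKM in siControl libraries, without overlap.

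**Figure D5:**
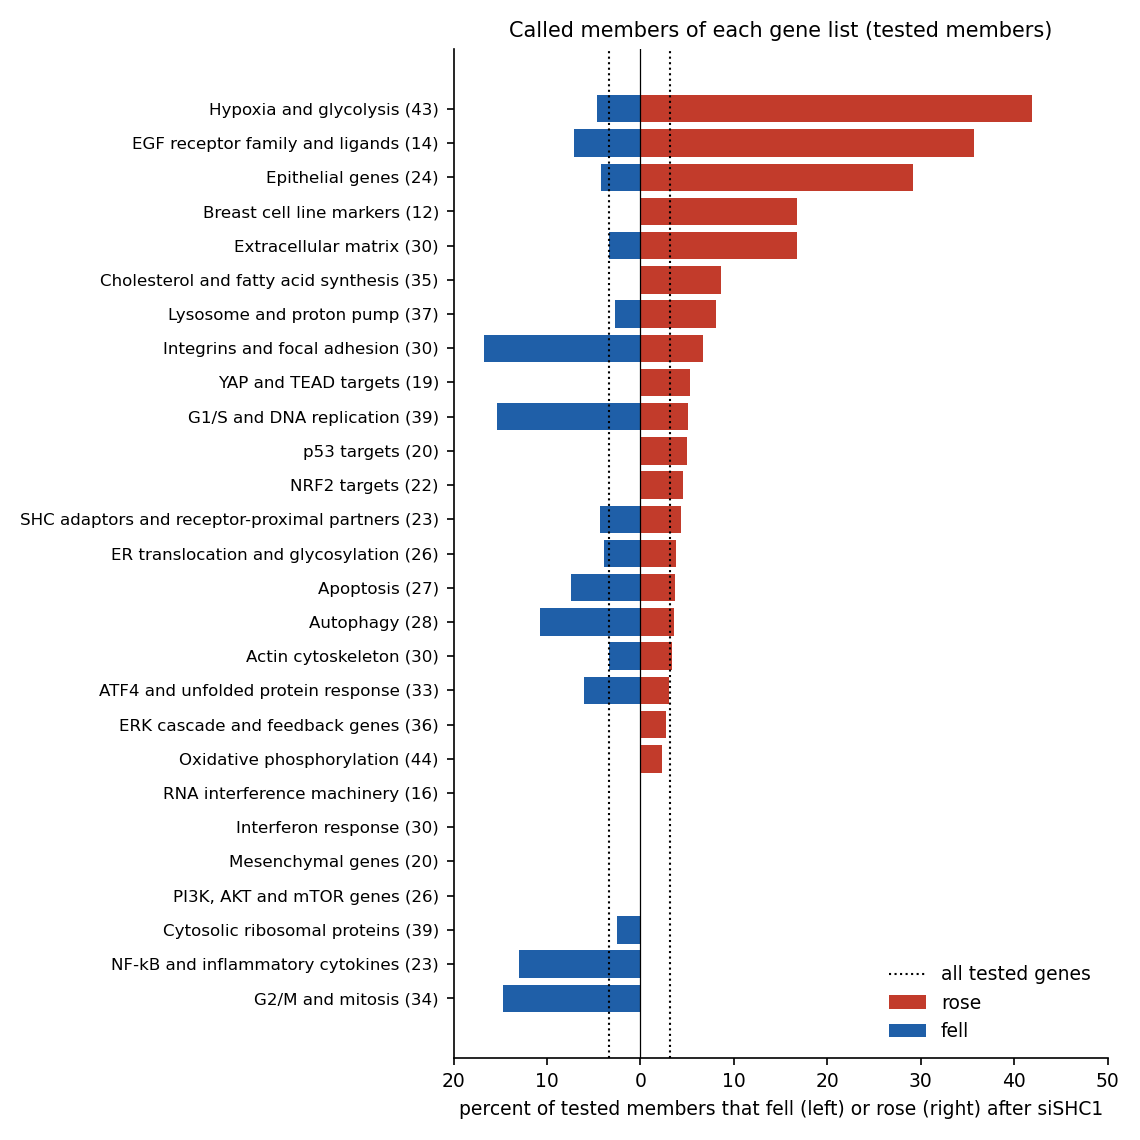
Percent of the tested members of each gene list that fell (bars to the left) or rose (bars to the right) after siSHC1, with the number tested in brackets and dotted lines at the share of all tested genes, 3.35% falls and 3.12% rises. Hypoxia and glycolysis has the longest bar to the right (41.9%) and integrins and focal adhesion the longest to the left (16.7%).

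The large rises outside the lists included secreted and membrane proteins. ARTN, a ligand of the GDNF family, had 34.4 and 57.1 FPKM in siSHC1 libraries against 13.9 and 22.8 FPKM in siControl libraries (1.24 ± 0.15, adjusted p = 0.00993). RARRES2, the adipokine chemerin, had 33.9 and 53.6 FPKM in siSHC1 libraries against 16.1 and 18.04 FPKM in siControl libraries (1.24 ± 0.15, adjusted p = 0.0105). SNCG, gamma-synuclein, had 12.7 and 25.1 FPKM in siSHC1 libraries against 4.23 and 8.89 FPKM in siControl libraries (1.37 ± 0.14, adjusted p = 0.00583). All 3 were without overlap and higher at 48 h in each siRNA. GDPD5, a glycerophosphodiester phosphodiesterase, had 14.7 and 16.8 FPKM in siSHC1 libraries against 5.14 and 5.44 FPKM in siControl libraries (1.38 ± 0.12, adjusted p = 0.00341). S100A3, a calcium-binding protein, had 36.1 and 50.3 FPKM in siSHC1 libraries against 16.9 and 25.2 FPKM in siControl libraries (0.98 ± 0.10). ABCA7, a lipid transporter, had 13.4 and 22.0 FPKM in siSHC1 libraries against 5.68 and 8.56 FPKM in siControl libraries (1.16 ± 0.25, adjusted p = 0.0488). GDPD5 kept the call throughout, ABCA7 lost it without any one of the 4 libraries (adjusted p 0.0541 to 0.29), and ARTN, RARRES2, SNCG and S100A3 lost it without siControl at 24 h (0.0946, 0.0586, 0.0599 and 0.0586).

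Some genes differed between the times instead. By the rule for the largest difference above the same limit on the mean, AC012360.2, AC018867.2, LUZP6, GPR157 and AC007382.1 had the higher change at 48 h, and CMTM1, RNF169, IGF1R, NFKBIZ and KCTD7 the lower. IGF1R, the receptor of insulin-like growth factor 1, had 10.7 and 6.53 FPKM in siSHC1 libraries and 4.28 and 10.9 FPKM in siControl libraries, with changes of 1.07 at 24 h and −0.63 at 48 h. NFKBIZ, an inducible regulator of NF-kB, had 7.41 and 4.61 FPKM in siSHC1 libraries and 6.17 and 15.6 FPKM in siControl libraries, with changes of 0.15 and −1.54. CMTM1 had 8.32 and 1.07 FPKM in siSHC1 libraries and 3.95 and 7.80 FPKM in siControl libraries. In these 3 the libraries overlapped, none of the 10 genes was called, and the difference between the times was not tested, with 1 library behind each value.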

How the data were processed

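Polyadenylated RNA of 6 libraries was sequenced, per the labels' protocols with a stranded kit after Trizol extraction. The submitters' processing notes name STAR, Cufflinks, DESeq2 and hg19 without roles or versions, and neither the annotation nor the use of strand is stated there. The table deposited by the authors is named for read counts but holds FPKM by gene symbol. Read depth is therefore unknown beyond a relative estimate from low values, no interval for counting error was computed, and a value of exactly 0 is called listed at 0.

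FPKM were scaled by median-of-ratios factors (0.946 to 1.02, from 11042 genes). Genes reaching 1 FPKM in 2 or more libraries were tested on log2(scaled FPKM + 1) with limma 3.58.1 in R 4.3.3 (trend and robust moderation, additive terms for siRNA and time, 2 residual degrees of freedom), with Benjamini-Hochberg adjustment over all 11699 genes. The term for time pairs the libraries, since the labels number no replicates. The fit was tested on simulated data.

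The members and the 28 lists (802 distinct symbols, 801 in the table) were chosen with earlier results of these data known, so lists carry no test. Named are SHC1, AREG and ITGB1, the 15 largest rises and falls by the smaller change of the 2 times where called and where the 4 libraries averaged 5 FPKM or more, up to 4 called and 2 uncalled members per list with the largest change, and 5 genes per direction with the largest difference between times. Some results are not reported here. Other members named within a list's count were named after their values were seen.

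Transcripts came from GENCODE release 29 (GRCh38), matched by symbol to 97.7% of tested genes, with the longest 3′ UTR of at least 30 bases per gene. Promoters came from RefSeq. Python 3.11.15, numpy 2.4.6, pandas 2.3.3, scipy 1.17.1 and matplotlib 3.10.9 were used. The alternatives tried were scaling, filter, pseudocount, moderation, libraries and the term for time. Those for the lists without single libraries were added after the data were seen.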

Additional observations from a re-analysis of the deposited data

Results flagged for a closer look

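In 6 genes siSHC1 differed 2-fold or more from siControl at both times but in opposite directions. None was called, each value rests on 1 library, and the difference between the times was not tested. The log2 change at 48 h minus that at 24 h was 4.53 for AC012360.2, 4.003 for CTD-2192J16.24, 2.84 for LUZP6 and 2.96 for RP11-565P22.6, which were lower at 24 h and higher at 48 h in siSHC1. It was −3.87 for IL7, the lymphocyte growth factor, and −2.75 for CXorf28, which were higher at 24 h and lower at 48 h. IL7 had 2.02 and 0.0751 FPKM in siSHC1 libraries and 0.159 and 5.22 FPKM in siControl libraries. LUZP6 had 62.3 and 44.8 FPKM in siSHC1 libraries and 193 and 20.4 FPKM in siControl libraries. AC012360.2 had 21.4 and 195 FPKM in siSHC1 libraries and 63.2 and 25.4 FPKM in siControl libraries.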

How the results depend on the processing

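The 757 calls numbered 14 with no filter on low values, 379 with no trend in the moderation and 222 with no replicate block (no term for time, 58 rises and 164 falls). They ran from 60 to 733 when 1 library was left out, with the lowest counts without siControl at 24 h (60) and at 48 h (110), and 431 and 245 without siSHC1 at 24 h and 48 h. With no filter none of the 30 largest rises and falls was called, and SHC1 then had an adjusted p of 0.0542. With no scaling there were 634 calls and with equal totals 712. No called member of a list and none of the largest changes reversed under any setting run, and 25 of 107 such genes stayed called whichever of the 6 libraries was left out. The 58 genes changed 2-fold at both times numbered 117 with a pseudocount of 0.1 and 22 with a pseudocount of 5. The share of falls with the word, 41.8%, was 64.4% for its 6-base core and 13.4% for its 8-base form, the word followed by A. In uncalled genes these shares were 7.71%, 34.5% and 2.02%. Read counts could not be recovered from FPKM, so the counting error of low genes such as CXCL1 is unknown.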
